A study of Mus musculus with 18 samples.

Results

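The acute phase and plasma protein genes described here are 38 of the 22298 genes in the deposited tables. They were chosen by name, from what their proteins are known to do, with earlier results of these data already known. They were found by matching the deposited Ensembl identifiers to GENCODE M21 symbols. All 38 were present. They comprise the serum amyloid A genes (Saa1 to Saa4), the pentraxins Apcs and Crp, the orosomucoids (Orm1 to Orm3), the haem and haemoglobin scavengers Hp and Hpx, the fibrinogen chains with their relative Fgl1, the antibacterial and complement genes Lcn2, Lbp, C3 and Cfb, the metal handling genes Hamp, Mt1, Mt2 and Cp, the serpins of the A1 and A3 clusters, Itih3, Itih4 and Ambp, and Ahsg, Ttr, Trf and Alb, which are known to fall in an acute phase response.

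RNA was sequenced from the liver, epididymal white fat (eWAT) and inguinal white fat (iWAT) of C57BL/6 mice aged 12 weeks. KO libraries came from Bckdhaf/f;RIP-Cre mice, which carry a floxed Bckdha gene together with Cre recombinase, and WT libraries came from Bckdhaf/f mice, which carry the same floxed gene without Cre. Bckdha encodes a subunit of the branched-chain keto acid dehydrogenase, the enzyme complex that commits branched-chain amino acids to breakdown, and in RIP-Cre the rat insulin promoter drives Cre, chiefly in the beta cells of the pancreas, with known activity in some neurons. Each genotype had 3 libraries in each tissue, none of the groups used here carried RIP-Cre alone, and the sex of the mice and whether the 3 libraries of a group came from 3 animals are not stated in the labels, so a p-value measures the spread between these libraries.

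The liver makes most plasma proteins. In an acute phase response, interleukin-6 from immune cells signals through STAT3 in hepatocytes, interleukin-1 and TNF signal through NF-kB, and C/EBP factors and glucocorticoids add to both. Production of positive reactants such as serum amyloid A, orosomucoid, fibrinogen and hepcidin then rises, while that of albumin and transthyretin falls. In mice, serum amyloid A and the pentraxin encoded by Apcs respond strongly and Crp responds little. Fat is known to make some of the same proteins, among them haptoglobin, serum amyloid A3 and lipocalin-2.

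Libraries held between 16796147 and 28039742 counted reads. Bckdha itself had 241, 203 and 179 CPM in KO livers, against 194, 232 and 232 CPM in WT livers, and since that promoter is not known to be active in liver this level does not test the deletion. The 18 hepatocyte markers averaged 11.46 to 11.52 on the log2(CPM + 1) scale in KO livers and 11.32 to 11.66 in WT livers, and 18 of 18 were detected in each liver library. CPM is a gene's count scaled by the read total of its library and by a size factor for that library (TMM). CPM values are therefore not plain shares of reads. WT liver 2 stood apart: it was the highest of the 6 liver libraries in 29.7% and the lowest in 29.4% of all genes tested, and the 8 liver endothelium markers averaged 5.91 to 6.13 in KO livers, against 4.54 in WT liver 2 and 5.88 and 6.06 in the other WT livers. One eWAT library went against its label, as set out with that tissue. Because these are bulk samples, fewer cells of a type and less RNA per cell cannot be told apart.

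Together the 38 genes took 18.5% to 21.3% of the reads in KO livers and 21.5% to 22.6% in WT livers, so the groups did not overlap. In fat they took 0.815% to 1.62% in KO eWAT and 0.471% to 1.10% in WT eWAT, and 0.670% to 0.783% in KO iWAT and 0.566% to 0.937% in WT iWAT. Compared per length, with the deposited FPKM values (reads scaled by transcript length and library size), the liver levels spanned several orders of magnitude. Alb stood at the top with 39300.4 ± 792 FPKM in KO and 37797 ± 1944 FPKM in WT (SD, n = 3 each). Trf followed with 7992 ± 1083 FPKM in KO and 10944 ± 1007 FPKM in WT. At the bottom, Orm3 averaged 3.22 ± 0.167 FPKM in KO and 12.9 ± 7.12 FPKM in WT, Saa3 16 ± 7.39 FPKM in KO and 12 ± 8.99 FPKM in WT, and Hamp 6.95 ± 11.8 FPKM in KO and 0.64 ± 0.74 FPKM in WT.

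**Figure D1:**
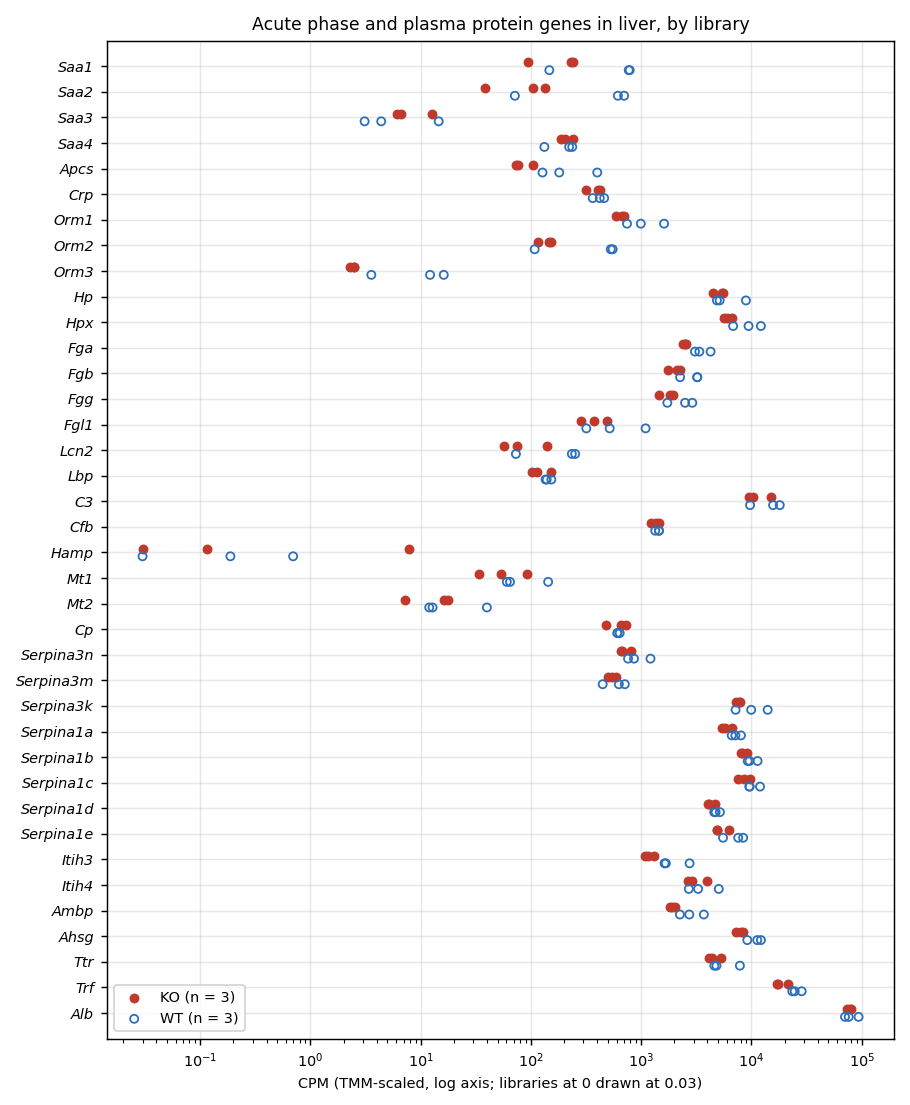
CPM of the 38 genes in each liver library on a log axis, KO points above WT points for each gene, with libraries at 0 drawn at 0.03. The genes run from Alb, at 70674 CPM or more in every library, down to Hamp, which was at 0 in 1 KO and 1 WT library, and in Saa1, Saa2, Orm2 and Orm3 the WT points are spread widely.

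In liver most of the plasma protein genes had lower means in KO, and the most negative fold changes were those of Saa2, Orm3, Saa1, Orm2 and Apcs, all known to be induced in the acute phase response of mice. Of the 37 genes tested (Hamp did not pass the filter on low counts), 34 had a negative log2 fold change (KO over WT), against 50.3% of all genes tested, and their median was -0.45, against -0.0021 over all genes. None passed the threshold, an adjusted p under 0.05 from edgeR's quasi-likelihood test with Benjamini-Hochberg adjustment over all 11915 genes tested, of which 0.0504% passed. Adjusted p values given below are from this test unless another is named. Without adjustment, 13 genes had p under 0.05 with lower values in KO, where 3.17% of all genes did, and 0 had p under 0.05 with higher values in KO, where 2.87% did. DESeq2 called 2 members, Orm3 (adjusted p = 0.000808) and Apcs (adjusted p = 0.00922), where it called 63 of all 16276 genes. With limma-voom, 0 members and 4 of all 11915 genes were called. Every KO library lay below every WT library in 11 genes, a pattern seen in 6.97% of all genes tested, and above in 0 genes, against 5.98%.

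Without WT liver 2, the median of the members was -0.30 and 32 of 37 were negative. Then 7 had an unadjusted p under 0.05 with lower values in KO, and 1 with higher values. Of all genes, 1186 of 12160 had such a p in either direction, against 720 of 11915 with every library. Without WT liver 3, 2 members passed the adjusted threshold, Orm3 and Orm2 (adjusted p = 0.0275 each), and 37 of the 38 then tested were negative. In that fit 11 of all 12140 genes tested passed.

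Serum amyloid A1 and A2 are carried on high-density lipoprotein in plasma and are classic positive reactants. Their mean levels were lower in KO livers, but 1 WT liver overlapped the KO livers in both. Saa1 had 241, 94.9 and 230.4 CPM in KO livers, against 788, 772 and 147 CPM in WT livers. Its means were 189 ± 81.5 CPM in KO and 569 ± 366 CPM in WT (SD, n = 3 each), and its log2 fold change was -1.59 ± 0.57 (SE; adjusted p = 0.674). Saa2 had 135, 38.3 and 105 CPM in KO livers, against 701, 616 and 71.6 CPM in WT livers. Its means were 92.8 ± 49.5 CPM in KO and 463 ± 342 CPM in WT (SD, n = 3 each), and its log2 fold change was -2.32 ± 0.74 (SE; adjusted p = 0.603). For both genes WT livers 1 and 2 stood above every KO liver, and WT liver 3 lay inside the KO range.

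The other 2 genes of the cluster showed no such gap. Saa3, which in mice is made mainly outside hepatocytes, had 6.16, 6.59 and 12.8 CPM in KO livers, against 4.39, 14.6 and 3.1 CPM in WT livers (log2 fold change 0.22 ± 0.54 (SE), adjusted p = 0.956). Saa4, the constitutive member of the family, had 186, 203 and 242 CPM in KO livers, against 237, 222 and 133 CPM in WT livers (log2 fold change 0.09 ± 0.24 (SE), adjusted p = 0.959). The 4 genes lie together on chromosome 7 (mm10), with Saa3 at 46711998-46715700 on the minus strand, Saa4 at 46727998-46732603 on the minus strand, Saa1 at 46740497-46742980 on the minus strand and Saa2 at 46751790-46754313 on the plus strand. Saa1 and Saa2 shared 13.21% and 8.46% of their 50-base stretches with each other, so the counting could move some reads between these 2 genes.

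The promoters of Saa1 and Saa2 are shown because these adjoining genes ranked the 6 livers in the same order, WT 1, WT 2, KO 1, KO 3, WT 3 and KO 2 from high to low. Each sequence is from RefSeq (GRCm38.p6), 5′ to 3′, from 250 bases before the annotated start to 50 after it, and capitals mark matches on either strand to TTGCNNAA (a C/EBP motif) or TTCNNNGAA (a STAT motif). In the aligned pair, 287 of 301 columns, or 95.3%, were identical. Each held 1 C/EBP match, 182 bases before the start in Saa1 and 183 in Saa2, and no STAT match in this window.
Saa1 (chr7:46742931-46743230, minus strand): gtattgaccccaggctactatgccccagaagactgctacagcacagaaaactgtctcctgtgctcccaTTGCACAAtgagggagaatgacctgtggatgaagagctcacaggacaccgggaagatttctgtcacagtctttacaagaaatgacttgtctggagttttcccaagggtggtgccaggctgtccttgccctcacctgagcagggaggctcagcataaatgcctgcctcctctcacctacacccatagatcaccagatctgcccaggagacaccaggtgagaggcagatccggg
Saa2 (chr7:46751583-46751882, plus strand): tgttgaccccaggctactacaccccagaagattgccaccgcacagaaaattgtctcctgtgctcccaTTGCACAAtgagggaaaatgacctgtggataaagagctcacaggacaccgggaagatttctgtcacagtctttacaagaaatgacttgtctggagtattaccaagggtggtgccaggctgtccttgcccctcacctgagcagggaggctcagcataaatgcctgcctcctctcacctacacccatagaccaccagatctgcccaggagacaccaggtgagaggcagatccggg

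Of the pentraxins, Apcs had the wider gap between genotypes. Apcs encodes serum amyloid P component, and had 76.2, 73.8 and 104 CPM in KO livers, against 181, 400.2 and 127 CPM in WT livers. Its means were 84.5 ± 16.5 CPM in KO and 236 ± 145 CPM in WT (SD, n = 3 each), and its log2 fold change was -1.48 ± 0.38 (SE; adjusted p = 0.5), and no WT liver overlapped a KO liver. The highest value was that of WT liver 2, and without that library the log2 fold change was -0.87. Crp, C-reactive protein, had 318, 425 and 403 CPM in KO livers, against 364, 422 and 462 CPM in WT livers, with the groups interleaved (log2 fold change -0.12 ± 0.18 (SE), adjusted p = 0.919). Apcs lies on chromosome 1 (mm10) at 172893961-172895041 on the minus strand. Its promoter is shown as that of the gene with the second lowest p in liver, and it held 1 STAT match, 244 bases before the start, and no C/EBP match in this window.
Apcs (chr1:172895005-172895304, minus strand): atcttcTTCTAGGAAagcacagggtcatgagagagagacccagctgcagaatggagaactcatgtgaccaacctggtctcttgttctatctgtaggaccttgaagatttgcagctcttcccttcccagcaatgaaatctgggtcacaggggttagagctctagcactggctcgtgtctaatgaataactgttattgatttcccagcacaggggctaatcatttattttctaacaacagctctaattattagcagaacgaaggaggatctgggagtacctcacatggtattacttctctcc

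All 3 orosomucoid genes, which encode alpha-1-acid glycoproteins that bind drugs and lipids in plasma, had lower means in KO livers, and each had an unadjusted p under 0.05. Orm3 had 2.27, 2.47 and 2.47 CPM in KO livers, against 12.2, 16.2 and 3.57 CPM in WT livers. Its means were 2.4 ± 0.114 CPM in KO and 10.7 ± 6.46 CPM in WT (SD, n = 3 each), and its log2 fold change was -2.14 ± 0.47 (SE; adjusted p = 0.425). This gene had the lowest unadjusted p of the 37 in edgeR's test, 0.00126, and the groups did not overlap. Orm2 had 152, 116 and 146 CPM in KO livers, against 531, 552 and 108 CPM in WT livers. Its means were 138 ± 19.3 CPM in KO and 397 ± 250.2 CPM in WT (SD, n = 3 each), and its log2 fold change was -1.52 ± 0.49 (SE; adjusted p = 0.603), with WT liver 3 below 3 of 3 KO livers. Orm1, the most abundant of the family, had 594, 706 and 676 CPM in KO livers, against 994, 1615 and 745 CPM in WT livers. Its means were 659 ± 57.9 CPM in KO and 1118 ± 448 CPM in WT (SD, n = 3 each), and its log2 fold change was -0.76 ± 0.27 (SE; adjusted p = 0.674), and without WT liver 2 its log2 fold change was -0.40. Orm1 and Orm2 shared 20.39% of their 50-base stretches and had counts that were not whole in 14 of 18 libraries each, so reads could be split between them, whereas Orm3 shared at most 3.59% with either.

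The orosomucoid cluster lies on chromosome 4 (mm10), with Orm1 at 63344560-63348163, Orm3 at 63356162-63359511 and Orm2 at 63362449-63365878, all on the plus strand. The promoters of Orm2 and Orm3 are printed as those of the pair with the larger gaps, with the same marks as above. They were identical in 264 of 305 aligned columns, or 86.6%, and each held 1 C/EBP match, 120 bases before the start in Orm2 and 121 in Orm3, and no STAT match in this window.
Orm2 (chr4:63362199-63362498, plus strand): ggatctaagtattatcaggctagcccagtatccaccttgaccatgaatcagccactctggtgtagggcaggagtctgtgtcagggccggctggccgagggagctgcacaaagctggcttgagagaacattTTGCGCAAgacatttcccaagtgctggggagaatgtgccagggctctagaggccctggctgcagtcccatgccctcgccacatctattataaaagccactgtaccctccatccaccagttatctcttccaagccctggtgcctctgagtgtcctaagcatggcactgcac
Orm3 (chr4:63355908-63356207, plus strand): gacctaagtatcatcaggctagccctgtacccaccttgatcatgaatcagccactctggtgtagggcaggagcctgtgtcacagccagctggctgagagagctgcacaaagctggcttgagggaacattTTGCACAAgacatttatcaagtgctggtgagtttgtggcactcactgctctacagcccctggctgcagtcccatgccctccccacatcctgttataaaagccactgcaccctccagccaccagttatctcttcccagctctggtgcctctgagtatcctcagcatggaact

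**Figure D2:**
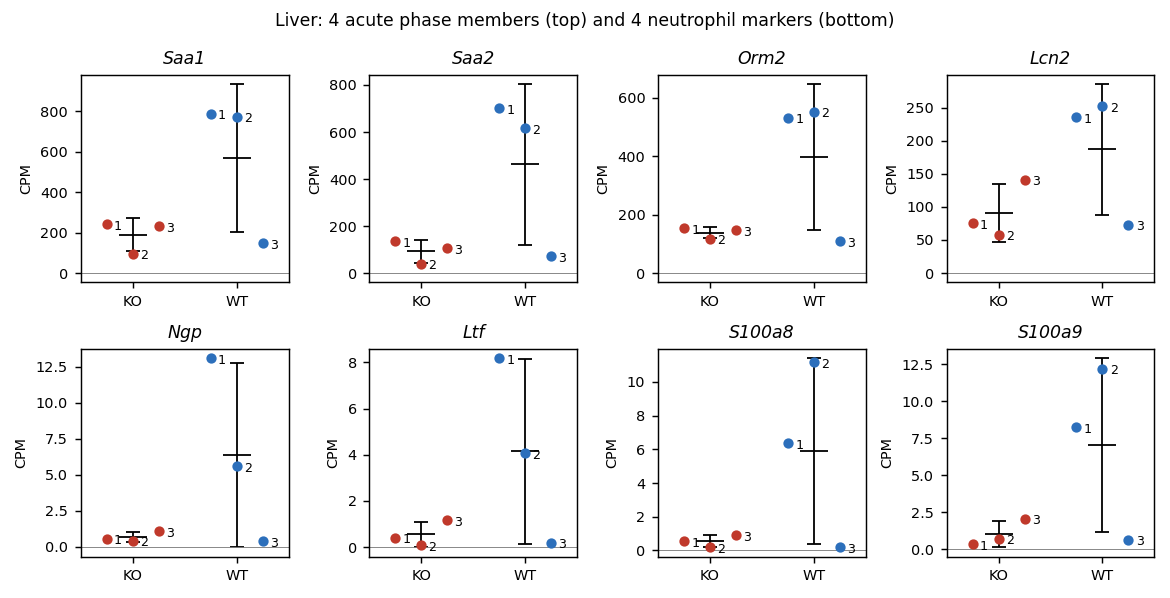
CPM in KO livers (left) and WT livers (right) of Saa1, Saa2, Orm2 and Lcn2 (top) and of the neutrophil markers Ngp, Ltf, S100a8 and S100a9 (bottom); numbered points are libraries, and bars are the mean ± SD of 3 libraries on a linear axis. In each of these panels WT livers 1 and 2 stand above the 3 KO livers and WT liver 3 lies among or below them.

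The scavengers differed by less. Hpx encodes hemopexin, which binds free haem, and had 6726, 5620.4 and 6026 CPM in KO livers, against 9431, 12201 and 6834 CPM in WT livers, so that no WT liver overlapped a KO liver (log2 fold change -0.63 ± 0.24 (SE), adjusted p = 0.734). Hp encodes haptoglobin, which binds free haemoglobin, and had 5461, 4534 and 5547 CPM in KO livers, against 4873, 8932 and 5158 CPM in WT livers (log2 fold change -0.29 ± 0.26 (SE), adjusted p = 0.884). WT liver 2 alone stood above the KO livers in Hp, and the other WT livers lay inside their range.

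The 3 chains of fibrinogen, the clot-forming protein, were each lower on average in KO livers, by similar factors. Fga had 2412, 2517 and 2538 CPM in KO livers, against 4269.8, 3374 and 3079.7 CPM in WT livers. Its means were 2489 ± 67.4 CPM in KO and 3574 ± 619.9 CPM in WT (SD, n = 3 each), and its log2 fold change was -0.52 ± 0.19 (SE; adjusted p = 0.7), without overlap. Fgb had 1766, 2115 and 2267 CPM in KO livers, against 3227, 3230.0 and 2258 CPM in WT livers (log2 fold change -0.50 ± 0.21 (SE), adjusted p = 0.8). Fgg had 1455, 1810.4 and 1939.8 CPM in KO livers, against 2505, 2913 and 1729.8 CPM in WT livers (log2 fold change -0.46 ± 0.23 (SE), adjusted p = 0.836). In Fgb and Fgg, WT livers 1 and 2 stood above every KO liver and WT liver 3 lay inside the KO range. Fgl1, a fibrinogen-related protein secreted by hepatocytes, had 285, 488 and 377 CPM in KO livers, against 519, 1098 and 318 CPM in WT livers (log2 fold change -0.75 ± 0.40 (SE), adjusted p = 0.836), and again WT livers 1 and 2 stood above every KO liver and WT liver 3 lay inside the KO range.

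Of these, Fga and Fgb had an unadjusted p under 0.05. The chain genes lie within one stretch of chromosome 3 (mm10), with Fgg at 83007724-83015049 and Fga at 83026076-83033627 on the plus strand and Fgb at 83040141-83049863 on the minus strand. The promoters of Fga and Fgb are printed because, unlike those of the serum amyloid A and orosomucoid genes above, each held both a STAT and a C/EBP match. In Fga the STAT match lay 234 and the C/EBP match 135 bases before the start, and in Fgb the STAT match lay 162 and the C/EBP match 80 bases before it. They were identical in 48.5% of aligned columns, little different from the 53.3% between the unrelated promoters of Saa1 and Orm2.
Fga (chr3:83025903-83026202, plus strand): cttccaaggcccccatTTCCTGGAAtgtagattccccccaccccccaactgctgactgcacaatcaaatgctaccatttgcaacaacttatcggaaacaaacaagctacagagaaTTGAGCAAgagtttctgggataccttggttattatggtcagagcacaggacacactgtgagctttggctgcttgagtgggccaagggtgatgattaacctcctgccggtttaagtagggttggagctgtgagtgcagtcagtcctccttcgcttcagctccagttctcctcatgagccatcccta
Fgb (chr3:83049814-83050113, minus strand): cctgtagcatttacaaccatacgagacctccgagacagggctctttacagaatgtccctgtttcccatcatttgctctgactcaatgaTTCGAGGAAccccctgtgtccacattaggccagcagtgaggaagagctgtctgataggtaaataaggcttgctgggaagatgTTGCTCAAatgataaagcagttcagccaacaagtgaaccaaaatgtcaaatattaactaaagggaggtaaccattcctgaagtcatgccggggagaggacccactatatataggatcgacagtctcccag

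Among the 29 members with a promoter in the table (outside chromosome 18), 19 held a C/EBP match, where 10.8% of the 32851 promoters in the whole table did. Members were counted as genes, with a match in any listed promoter. The 19 include related genes counted separately, among them Saa1 to Saa4, Orm2, Orm3, Serpina1a, Serpina1b, Serpina1d and Serpina1e, so the 2 shares are not directly comparable. A STAT match was present in 5 of the 29 (Apcs, Fga, Fgb, Hamp and Itih4), where 8.3% of all promoters held one. A pattern for NF-kB, searched on both strands like the others, was found in 0 of 29 and in 0.411% of all promoters. The metal response pattern TGCNCNC, so short that 51.0% of all promoters held it, was found in 13, with 6 matches in Mt2 and 3 in Mt1. These are matches of letters in one window, not binding sites.

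The antibacterial and complement genes were lower on average in KO livers in 4 of 4, none with an unadjusted p under 0.05. Lcn2, lipocalin-2, which withholds iron from bacteria by binding their siderophores, had 75, 57.4 and 141 CPM in KO livers, against 235, 252 and 73.1 CPM in WT livers (log2 fold change -1.04 ± 0.46 (SE), adjusted p = 0.816), and again WT livers 1 and 2 stood above the KO livers and WT liver 3 lay inside their range. Lbp encodes the protein that hands lipopolysaccharide to CD14, and had 151, 113 and 102 CPM in KO livers, against 136, 139 and 153 CPM in WT livers (log2 fold change -0.23 ± 0.19 (SE), adjusted p = 0.863). C3, the central complement protein, had 15069.8, 10370.3 and 9513 CPM in KO livers, against 18098, 9734 and 15747 CPM in WT livers, and the libraries were interleaved (log2 fold change -0.32 ± 0.28 (SE), adjusted p = 0.879). Cfb, factor B of the alternative complement pathway, had 1358, 1226 and 1455 CPM in KO livers, against 1455, 1448 and 1343 CPM in WT livers (log2 fold change -0.07 ± 0.17 (SE), adjusted p = 0.955).

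Metal handling genes had no shared pattern across the livers. Mt1 and Mt2 encode metallothioneins, which bind zinc and copper. Mt1 had 91.5, 53.9 and 33.8 CPM in KO livers, against 60.5, 143 and 64.7 CPM in WT livers (log2 fold change -0.58 ± 0.41 (SE), adjusted p = 0.844), and Mt2 had 16.2, 7.24 and 17.6 CPM in KO livers, against 12, 39.9 and 12.8 CPM in WT livers (log2 fold change -0.66 ± 0.49 (SE), adjusted p = 0.845). In both, WT liver 2 was highest and the other libraries were mixed. Cp, ceruloplasmin, which carries copper and oxidises iron, had 476, 653 and 731 CPM in KO livers, against 639, 611 and 609 CPM in WT livers (log2 fold change 0.00 ± 0.20 (SE), adjusted p = 1). Hamp encodes hepcidin, the hormone that closes the iron exporter ferroportin. It had 0, 3 and 157 reads in KO livers and 0, 12 and 4 reads in WT livers, too few to be tested, with KO liver 3 standing alone. A count of 0 allows up to 3 reads.

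The serpins, which inhibit proteases in plasma, were lower on average in KO livers in 8 of 8, by small factors. Among the A3 serpins, Serpina3n had 804, 677 and 658 CPM in KO livers, against 1216, 862 and 761 CPM in WT livers (log2 fold change -0.41 ± 0.22 (SE), adjusted p = 0.836), Serpina3k had 7818, 7258 and 7729.8 CPM in KO livers, against 7194, 14057 and 9965 CPM in WT livers (log2 fold change -0.45 ± 0.26 (SE), adjusted p = 0.836), and Serpina3m had a log2 fold change of -0.13 ± 0.21. The 5 alpha-1-antitrypsin genes Serpina1a to Serpina1e had log2 fold changes between -0.42 (Serpina1e) and -0.18 (Serpina1d), with adjusted p between 0.836 and 0.894. Serpina1a had 6612, 5783 and 5407 CPM in KO livers, against 7165, 8044 and 6639 CPM in WT livers and Serpina1b 9202, 8206 and 8023 CPM in KO livers, against 9614, 11388 and 9268 CPM in WT livers, both without overlap. The Serpina1 genes shared 20.32% to 69.36% of their 50-base stretches with another gene of the cluster and had counts that were not whole in 16 to 18 of 18 libraries, so their separate values are uncertain.

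The inter-alpha-trypsin inhibitor genes, whose products cross-link hyaluronan, were also lower on average in KO livers. Itih3, a heavy chain gene on chromosome 14 (mm10, 30908572-30923760, minus strand), had 1322, 1159.6 and 1086 CPM in KO livers, against 2752, 1633 and 1675 CPM in WT livers. Its means were 1189 ± 121 CPM in KO and 2020.2 ± 634 CPM in WT (SD, n = 3 each), and its log2 fold change was -0.76 ± 0.24 (SE; adjusted p = 0.603), without overlap, and WT liver 1 was far above the other libraries. Without WT liver 1 the log2 fold change of Itih3 was -0.47. Ambp encodes the light chain bikunin together with alpha-1-microglobulin, and had 2044, 1830.2 and 1910.0 CPM in KO livers, against 2735, 3706 and 2249.5 CPM in WT livers, without overlap (log2 fold change -0.59 ± 0.22 (SE), adjusted p = 0.707). Itih4, an inducible heavy-chain relative, had 3954, 2635 and 2871 CPM in KO livers, against 5064, 2710.0 and 3287 CPM in WT livers, with overlap (log2 fold change -0.23 ± 0.27 (SE), adjusted p = 0.904).

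Genes known to fall in an acute phase response also had lower mean CPM in KO livers, in 4 of 4. In Ttr and Alb, WT liver 2 alone stood above every KO liver in CPM. As a plain share of reads, Alb took 7.99% in WT liver 2, against 8.17% in KO liver 1. Ahsg, fetuin-A, an inhibitor of calcification, had 8391, 8028 and 7191 CPM in KO livers, against 11312, 12212 and 9185 CPM in WT livers (log2 fold change -0.47 ± 0.20 (SE), adjusted p = 0.8). Trf, transferrin, had 21366, 17118 and 17288 CPM in KO livers, against 28618, 23526 and 24725 CPM in WT livers (log2 fold change -0.46 ± 0.21 (SE), adjusted p = 0.816). Both were lower in 3 of 3 KO livers than in any WT liver. Ttr, transthyretin, the carrier of thyroxine and of retinol-binding protein, had 5301, 4368 and 4141 CPM in KO livers, against 4824, 7871 and 4616 CPM in WT livers (log2 fold change -0.33 ± 0.25 (SE), adjusted p = 0.845). Alb had 78132, 79437 and 73746 CPM in KO livers, against 70674, 93946 and 76373 CPM in WT livers, with the groups interleaved (log2 fold change -0.06 ± 0.21 (SE), adjusted p = 0.974). The mean FPKM of Alb was higher in KO livers, and the sign of its fold change turned in 4 of 15 alternatives. The median log2 fold change was -0.39 over these 4 genes, -1.52 over the 3 orosomucoids, -0.75 over the 4 serum amyloid A genes and -0.51 over the 4 fibrinogen genes.

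**Figure D3:**
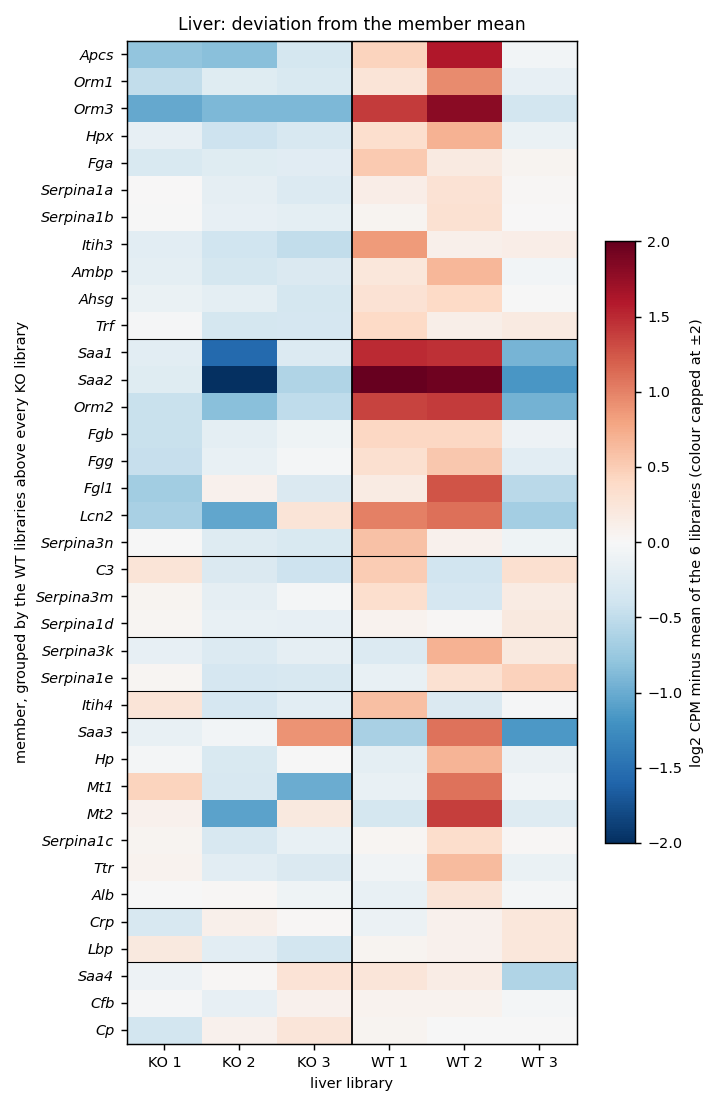
Heat map of the 37 tested genes (rows) in the 6 liver libraries (columns, KO left of WT); colour is log2 CPM minus the gene's mean over the 6 libraries, capped at 2 in either direction, and rows are grouped by which WT libraries exceeded every KO library. The groups of 11 genes with all WT livers above KO and of 8 with WT livers 1 and 2 above are the largest, and WT liver 2 is the highest library in 21 of 37 rows.

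The lower means rested on different WT libraries in different genes. All 3 WT livers stood above every KO liver in 11 of 37 genes, and WT livers 1 and 2 alone did so in 8 (Saa1, Saa2, Orm2, Fgb, Fgg, Fgl1, Lcn2 and Serpina3n), or 21.6%, where 4.03% of all genes tested had that pattern. WT liver 2 alone stood above the KO livers in 7 genes, or 18.9%, against 18.7% of all genes. WT liver 2 was the highest library in 21 genes, and in 29.7% of all genes tested. These ranks are in CPM and depend on the size factors. As a plain share of reads, the members together took 21.5% in WT liver 2, against 22.6% and 21.7% in WT livers 1 and 3. KO livers 1 and 2 were the highest library in 0 genes each, where 13.7% and 13.9% of all genes had their highest value there.

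Neutrophil markers were high in the same WT livers. Of 10 listed, 7 were tested, and 7 of 7 were lower on average in KO livers (median log2 fold change -2.75), 5 with an unadjusted p under 0.05 and 0 called. Their summed level, scaled over all 18 libraries, was 8.08, 4.91 and 18.9 CPM in KO livers, against 89.8, 78.2 and 5.78 CPM in WT livers, with 0 to 1 of the 10 at 0 in KO livers and 0 to 2 in WT livers. S100a8, a calcium-binding protein of neutrophil cytoplasm, had 0.542, 0.193 and 0.906 CPM in KO livers, against 6.37, 11.2 and 0.188 CPM in WT livers, and Ngp, a granule protein, had 0.542, 0.424 and 1.06 CPM in KO livers, against 13.1, 5.58 and 0.376 CPM in WT livers. Lcn2 is itself made by neutrophils. The 7 erythroid markers summed to 1009 to 2186 CPM in KO livers, against 2526 to 3643 CPM in WT livers, and the 10 macrophage markers to 1189 to 1247 CPM in KO livers and 1062 to 1532 CPM in WT livers. The part of these cells in the values of the plasma protein genes was not tested.

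The genes that carry acute phase signals gave no called change in liver. Of 14 tested genes of interleukin-6 and STAT3 signalling, 8 were higher and 6 lower on average in KO (median 0.03). Socs3, the feedback inhibitor that STAT3 induces, had 5.92, 4.16 and 6.9 CPM in KO livers, against 9.77, 11.7 and 9.63 CPM in WT livers, without overlap (log2 fold change -0.88 ± 0.23 (SE), adjusted p = 0.507), and Il6ra, the interleukin-6 receptor, had 48.2, 49.9 and 43.1 CPM in KO livers, against 38.2, 28.1 and 41.5 CPM in WT livers (log2 fold change 0.39 ± 0.19 (SE), adjusted p = 0.831). Of 16 genes of interleukin-1, TNF and NF-kB signalling, 9 were higher and 7 lower (median 0.13). Il1rap, the shared interleukin-1 receptor subunit, had 57.3, 91.6 and 85.8 CPM in KO livers, against 43, 65.3 and 51.7 CPM in WT livers (log2 fold change 0.55 ± 0.23 (SE), adjusted p = 0.789), and Tnfaip3, an NF-kB inhibitor, a log2 fold change of 0.42 ± 0.32.

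Among 17 liver transcription factors of plasma protein genes, 9 were lower and 8 higher on average in KO livers (median -0.20). Foxa2, a forkhead factor that opens liver enhancers, had 18.3, 16.4 and 14.2 CPM in KO livers, against 31.4, 31.8 and 36.3 CPM in WT livers, without overlap (log2 fold change -1.02 ± 0.17 (SE), adjusted p = 0.153). Of the 11 glucocorticoid response genes, 7 were higher and 4 lower (median 0.07), with Klf9, a transcription factor, at -0.50 ± 0.18 and Dusp1, a phosphatase, at 0.66 ± 0.33 on the log2 scale.

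Iron and zinc handling was mixed. Of 20 tested genes of hepcidin and iron handling, 9 were higher and 11 lower on average in KO livers (median -0.06). Bmp2, a ligand from liver endothelium that drives hepcidin, had 8.68, 7.93 and 7.95 CPM in KO livers, against 4.3, 3.49 and 5.87 CPM in WT livers, higher in 3 of 3 KO livers than in any WT liver (log2 fold change 0.84 ± 0.24 (SE), adjusted p = 0.538), and Hmox1, which degrades haem, had a log2 fold change of 0.41 ± 0.17. WT liver 2, the library with the lowest endothelium markers, had the lowest Bmp2 value, and the part of those markers in it was not tested. Of 10 zinc and metal genes, 6 were higher and 4 lower (median 0.07), led by the zinc transporter Slc30a5 at 0.47 ± 0.16 and the metal sensor Mtf1 at 0.31 ± 0.17.

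Other secreted plasma proteins also had mostly negative fold changes in liver. All 24 complement genes outside the members had a negative log2 fold change in KO livers, but their median was only -0.14 and 1 had an unadjusted p under 0.05. The lowest p values were those of Mbl2, a mannose-binding lectin, at -0.59 ± 0.25, and Vtn, vitronectin, at -0.39 ± 0.20. Of 20 coagulation and fibrinolysis genes, 15 were lower and 5 higher (median -0.18). Kng1, kininogen, had 2069, 2230.1 and 1846 CPM in KO livers, against 3884, 4069 and 2574 CPM in WT livers (log2 fold change -0.78 ± 0.22 (SE), adjusted p = 0.541), and Kng2 had a log2 fold change of -0.65 ± 0.22.

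Of 22 other secreted plasma proteins, 14 were lower and 8 higher (median -0.12). Igfbp1, an insulin-repressed binding protein for insulin-like growth factors, had 22.7, 27.3 and 35.4 CPM in KO livers, against 19.9, 11.1 and 16.3 CPM in WT livers (log2 fold change 0.85 ± 0.25 (SE), adjusted p = 0.574), and Fetub, fetuin-B, a log2 fold change of -0.68 ± 0.22. Of 20 genes of protein secretion and the unfolded protein response, 15 were lower and 5 higher (median -0.25), although the lowest p values belonged to 2 that were higher on average in KO, the stress factor Ddit3 at 0.83 ± 0.30 and Herpud1 at 0.47 ± 0.23. The lowest adjusted p among all these pathway genes was that of Foxa2.

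In epididymal fat 0 members were called, and the direction of their median turned on single libraries. WT eWAT 2 went against its label. The 10 epididymis and sperm duct markers summed to 1293, 16.9 and 1506 CPM in KO eWAT, against 37.1, 48316 and 1.64 CPM in WT eWAT. The 10 adipocyte markers summed to 10534, 20522 and 13775 CPM in KO eWAT, against 23266, 177 and 37511 CPM in WT eWAT. Of the 35 members tested (not Saa4, Apcs or Hamp, and Hamp had 0 reads in 6 of 6 libraries), 21 were higher and 14 lower on average in KO eWAT (median 0.50, against -0.02 over all genes, of which 51.5% were lower).

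The edgeR test called 0 of them and 0 of all 14657 genes tested (0.0%), and DESeq2 and limma-voom called 0 of them. Of all 19192 genes, DESeq2 called 128. Without adjustment 1 member, Mt2, had p under 0.05 with higher values in KO, where 2.84% of all genes did, and 0 with lower values, where 2.91% did. Without WT eWAT 2 the median was 0.51 and without KO eWAT 2 it was -0.68. With only the 3 libraries low in epididymal transcripts, KO eWAT 2 against WT eWAT 1 and 3, it was 1.43, and 0 members were called. That last fit takes the spread of the single KO library to be that of the WT pair.

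The Lcn2 fold change rested on 1 library. It had 169.6, 52.2 and 63.1 CPM in KO eWAT, against 145, 3364 and 98.2 CPM in WT eWAT, and the 3364 CPM belong to WT eWAT 2, the library rich in epididymal transcripts. Its log2 fold change was -3.66 ± 1.56 (adjusted p = 0.706) with that library and -0.28 without it. Some genes with high levels in fat were low in the same library. Hp had 2010.3, 6284 and 2255 CPM in KO eWAT, against 2459, 30.8 and 4528 CPM in WT eWAT. C3 had 1279, 1799.7 and 2554 CPM in KO eWAT, against 3157, 184 and 2268 CPM in WT eWAT. Serpina3n had 471, 1209 and 459 CPM in KO eWAT, against 709.7, 18.3 and 1171 CPM in WT eWAT. WT eWAT 2 was the lowest library in each of these 3, but not in Mt1, Mt2 or Cp.

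Mt2 had the lowest p of the members in eWAT, ahead of Lcn2, and Cp and Mt1 came next. Mt2 had 119, 407 and 66.2 CPM in KO eWAT, against 44, 72.8 and 17.1 CPM in WT eWAT (log2 fold change 2.15 ± 0.85 (SE), adjusted p = 0.706), and its log2 fold change was 2.73 without WT eWAT 2 and 1.04 without KO eWAT 2. Mt1 had 129.5, 248 and 95.9 CPM in KO eWAT, against 76.4, 121 and 86.2 CPM in WT eWAT (log2 fold change 0.74 ± 0.42 (SE), adjusted p = 0.706), and without KO eWAT 2 its log2 fold change was 0.24. Cp had 212, 221 and 197 CPM in KO eWAT, against 328, 244 and 277 CPM in WT eWAT, the 1 member whose groups did not overlap, where 7.54% of all genes had every KO library below every WT library and 7.46% had it above (log2 fold change -0.43 ± 0.24 (SE), adjusted p = 0.706). Lbp had 142, 80 and 124 CPM in KO eWAT, against 109.8, 57.7 and 54.7 CPM in WT eWAT (log2 fold change 0.64 ± 0.38 (SE), adjusted p = 0.706).

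Fgl1 had 0.897, 7.34 and 1.93 CPM in KO eWAT, against 6.44, 4.36 and 20.3 CPM in WT eWAT (log2 fold change -1.61 ± 0.99 (SE), adjusted p = 0.711), Serpina3k 7.02, 54.7 and 17 CPM in KO eWAT, against 53.5, 16.2 and 139.8 CPM in WT eWAT (log2 fold change -1.41 ± 1.01 (SE), adjusted p = 0.724) and Itih3 3.62, 12.1 and 3.96 CPM in KO eWAT, against 4.33, 4.41 and 2.05 CPM in WT eWAT (log2 fold change 0.87 ± 0.66 (SE), adjusted p = 0.733). In these, too, the groups overlapped. Saa1, Saa2 and Saa3 were each lower on average in KO eWAT, and Saa3 had 4.07, 26.4 and 2.2 CPM in KO eWAT, against 14.1, 0.179 and 23.1 CPM in WT eWAT. All 5 Serpina1 genes were higher on average, and KO eWAT 2 was the highest library in each of them, as in 20 of 35 members, where it was the highest library in 17.2% of all genes tested.

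KO eWAT 2 also had the highest hepatocyte markers on the mean log2(CPM + 1) scale, but not in summed CPM. The highest sum was 9732.95 CPM in a WT eWAT library, against at most 3748.12 CPM in KO eWAT. The KO sums lay inside the WT range. Alb had 37.3, 498 and 118 CPM in KO eWAT, against 140.3, 153 and 111 CPM in WT eWAT (log2 fold change 0.69 ± 0.89 (SE), adjusted p = 0.829). The hepatocyte markers averaged 1.70, 3.96 and 2.5 on the log2(CPM + 1) scale in KO eWAT, against 2.65, 2.42 and 2.60 in WT eWAT, and the neutrophil markers summed to 17.9, 137 and 31.5 CPM in KO eWAT, against 24.2, 4.47 and 13 CPM in WT eWAT. Their part in the values of these genes was not tested.

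The pathway lists gave 0 calls in eWAT. The counts of genes higher and lower on average in KO were 12 and 3 for interleukin-6 and STAT3 signalling, where Il6ra (1.05 ± 0.35) and Pias3 (0.64 ± 0.22) had the lowest p, and 13 and 3 for interleukin-1, TNF and NF-kB signalling, where Il1r1 (0.71 ± 0.25) and Tnfaip3 (0.99 ± 0.37) did. They were 7 and 5 for the transcription factors (Cebpd 0.63 ± 0.41), 7 and 3 for glucocorticoid response (Per1 0.60 ± 0.29, Zbtb16 0.89 ± 0.54), 14 and 5 for iron (Slc40a1 0.76 ± 0.25, Smad6 0.79 ± 0.27) and 6 and 4 for zinc (Slc39a14 1.09 ± 0.46, Slc30a1 0.37 ± 0.17). Coagulation gave 15 and 2 (F10 3.68 ± 1.36, F7 2.76 ± 1.10), complement outside the members 15 and 7 (C4bp -6.32 ± 2.91, C1qa 0.78 ± 0.47), other plasma proteins 9 and 10 (Itih5 1.36 ± 0.69, Igfals -1.77 ± 1.3) and secretion 0 and 20 (Dnajb9 -0.96 ± 0.42, Srp54a -0.65 ± 0.30). Values in brackets are log2 fold changes ± SE. WT eWAT 2 was the highest library in 17 of the 20 secretion genes, and in 28.9% of all genes tested. The secretion genes summed to 2492, 3847 and 2386 CPM in KO eWAT, against 2729.8, 9511 and 2957 CPM in WT eWAT, so that WT eWAT 1 and 3 lay inside the KO range. C4bp, like Lcn2, was high in WT eWAT 2 alone, with 10.5, 5.51 and 13.2 CPM in KO eWAT, against 2.84, 2326 and 1.14 CPM in WT eWAT.

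In inguinal fat Saa3 had the lowest p of the members, with lower values in KO, and the others were split in direction. Of 35 members tested, 18 were higher and 17 lower on average in KO iWAT (median 0.03, against 0.01 over all genes, of which 48% were lower), and edgeR called 0 of them, as of all 14226 genes tested (0.0%). Without adjustment Saa3 alone had p under 0.05 with lower values in KO, where 2.8% of all genes did, and 0 had it with higher values, where 1.37% did. DESeq2 called 1 member, Saa3, where it called 60 of all 18340 genes, and limma-voom called 0 members.

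Saa3, the serum amyloid A of macrophages and adipocytes in mice, had 2.73, 2.16 and 0.846 CPM in KO iWAT, against 3.61, 23 and 19.4 CPM in WT iWAT. Its means were 1.91 ± 0.967 CPM in KO and 15.3 ± 10.3 CPM in WT (SD, n = 3 each). Its log2 fold change was -2.99 ± 0.79 (SE), with adjusted p = 1 with edgeR (unadjusted p = 0.00863) and adjusted p = 0.015 with DESeq2. It was the 1 member without overlap, where 5.03% of all genes had KO below WT and 4.34% had it above, although WT iWAT 1 was close to KO iWAT 1. Its log2 fold change ran from -3.46 to -2.58 when any 1 library was left out. The 10 macrophage markers summed to 1050 to 1738 CPM in KO iWAT, against 2055 to 2455 CPM in WT iWAT, without overlap, and 6 of 9 tested had an unadjusted p under 0.05 with lower values in KO. Their mean on the log2(CPM + 1) scale overlapped, at 4.90 to 5.57 in KO iWAT and 5.11 to 5.975 in WT iWAT. The 10 adipose stromal and mesothelial markers summed to 596 to 837 CPM in KO iWAT, against 1204 to 4056 CPM in WT iWAT, and the 8 stellate cell markers to 620 to 1007 CPM in KO iWAT, against 1056 to 1822 CPM in WT iWAT, both without overlap. The part of these cells in the Saa3 values was not tested.

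Lbp, Cp and C3 had the next lowest p values in iWAT, each with a lower mean in KO. Lbp had 42.1, 28.4 and 37 CPM in KO iWAT, against 35.1, 96.9 and 68.9 CPM in WT iWAT (log2 fold change -0.90 ± 0.38 (SE), adjusted p = 1), and its log2 fold change was -0.54 without WT iWAT 2. Cp had 213, 167 and 134 CPM in KO iWAT, against 187, 303 and 264 CPM in WT iWAT (log2 fold change -0.55 ± 0.27 (SE), adjusted p = 1). C3 had 2028, 2556 and 3104 CPM in KO iWAT, against 3001, 4180.4 and 4244 CPM in WT iWAT (log2 fold change -0.57 ± 0.30 (SE), adjusted p = 1). In all 3 the groups overlapped through WT iWAT 1. Other members with high levels in fat were split in direction. Hp had a log2 fold change of 0.33 ± 0.55, Trf 0.05 ± 0.46 and Cfb 0.03 ± 0.19, while Serpina3n was at -0.29 and Orm1 at -0.66. Lcn2 had 14.7, 13.1 and 14.2 CPM in KO iWAT, against 60.6, 6.28 and 23.5 CPM in WT iWAT (log2 fold change -1.11 ± 0.73 (SE), adjusted p = 1). The highest Lcn2 value was in WT iWAT 1, the library with the most neutrophil transcripts: the 10 markers summed to 51.9, 61.6 and 170 CPM in KO iWAT, against 742, 17.4 and 94.7 CPM in WT iWAT, and their part was not tested.

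Of the liver-type genes, Fgg had 12.3, 4.22 and 4.18 CPM in KO iWAT, against 4.29, 1.93 and 4.52 CPM in WT iWAT (log2 fold change 0.95 ± 0.58 (SE), adjusted p = 1), Serpina1a 24.9, 14.3 and 11.5 CPM in KO iWAT, against 11.7, 8.75 and 14.6 CPM in WT iWAT (log2 fold change 0.53 ± 0.36 (SE), adjusted p = 1) and Serpina3m 12.9, 6.09 and 5.23 CPM in KO iWAT, against 3.14, 17.7 and 33.1 CPM in WT iWAT (log2 fold change -1.15 ± 0.81 (SE), adjusted p = 1). KO iWAT 1 was the highest library in 16 of the 35 members, and in 26.2% of all genes tested, and WT iWAT 2 was the lowest in 17, and in 29.9% of all genes. The metallothioneins overlapped, Mt1 with 73.2, 27.4 and 39.3 CPM in KO iWAT, against 23.9, 65.9 and 38.3 CPM in WT iWAT and Mt2 with 23.1, 10.9 and 12.7 CPM in KO iWAT, against 7.8, 25.7 and 17.4 CPM in WT iWAT. Alb had 280.3, 125 and 152 CPM in KO iWAT, against 134, 118 and 205 CPM in WT iWAT. Hamp had 7, 10 and 9 reads in KO iWAT and 6, 1 and 3 reads in WT iWAT, and was not tested.

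The pathway lists gave 0 calls in iWAT either, and the adjusted p was 1 throughout. Counts higher and lower on average in KO were 9 and 6 for interleukin-6 and STAT3 signalling (Pias3 0.35 ± 0.14, Stat3 0.27 ± 0.22), 7 and 9 for interleukin-1, TNF and NF-kB signalling (Ly96 -0.87 ± 0.27, Il1r1 -0.58 ± 0.19), 4 and 8 for the transcription factors (Atf6 -0.37 ± 0.16, Hnf4a 1.14 ± 0.74) and 6 and 4 for glucocorticoid response (Tsc22d3 0.62 ± 0.35, Fkbp5 0.30 ± 0.21). They were 8 and 11 for iron (Hmox1 -0.99 ± 0.21, Tfrc -0.48 ± 0.16), 4 and 5 for zinc (Slc39a10 -0.49 ± 0.14, Slc39a8 -0.28 ± 0.29) and 11 and 6 for coagulation (Pros1 -0.79 ± 0.28, Proc 1.20 ± 0.59). Other plasma proteins gave 11 and 8 (Selenop -1.28 ± 0.29, Igf1 -0.73 ± 0.40) and secretion 4 and 16 (Dnajb9 -0.38 ± 0.17, Dnajc3 -0.32 ± 0.15).

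Complement outside the members was the list with the most unadjusted p values under 0.05 in iWAT, 7 lower and 1 higher of 21 tested, where 2.8% of all genes were lower and 1.37% higher with such a p, with 14 lower and 7 higher on average (median -0.45). C6, a component of the membrane attack complex, had 16.3, 22.5 and 20.7 CPM in KO iWAT, against 28.1, 40.5 and 39.4 CPM in WT iWAT, and C1qc, a C1q chain made by macrophages, had 157, 162 and 176 CPM in KO iWAT, against 228, 303 and 255 CPM in WT iWAT. Both were lower in 3 of 3 KO libraries than in any WT library, with log2 fold changes of -0.86 ± 0.22 and -0.67 ± 0.18. The summed macrophage, stromal and stellate cell markers given with Saa3 were also lower in KO iWAT, and their part in these values was not tested.

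**Figure D4:**
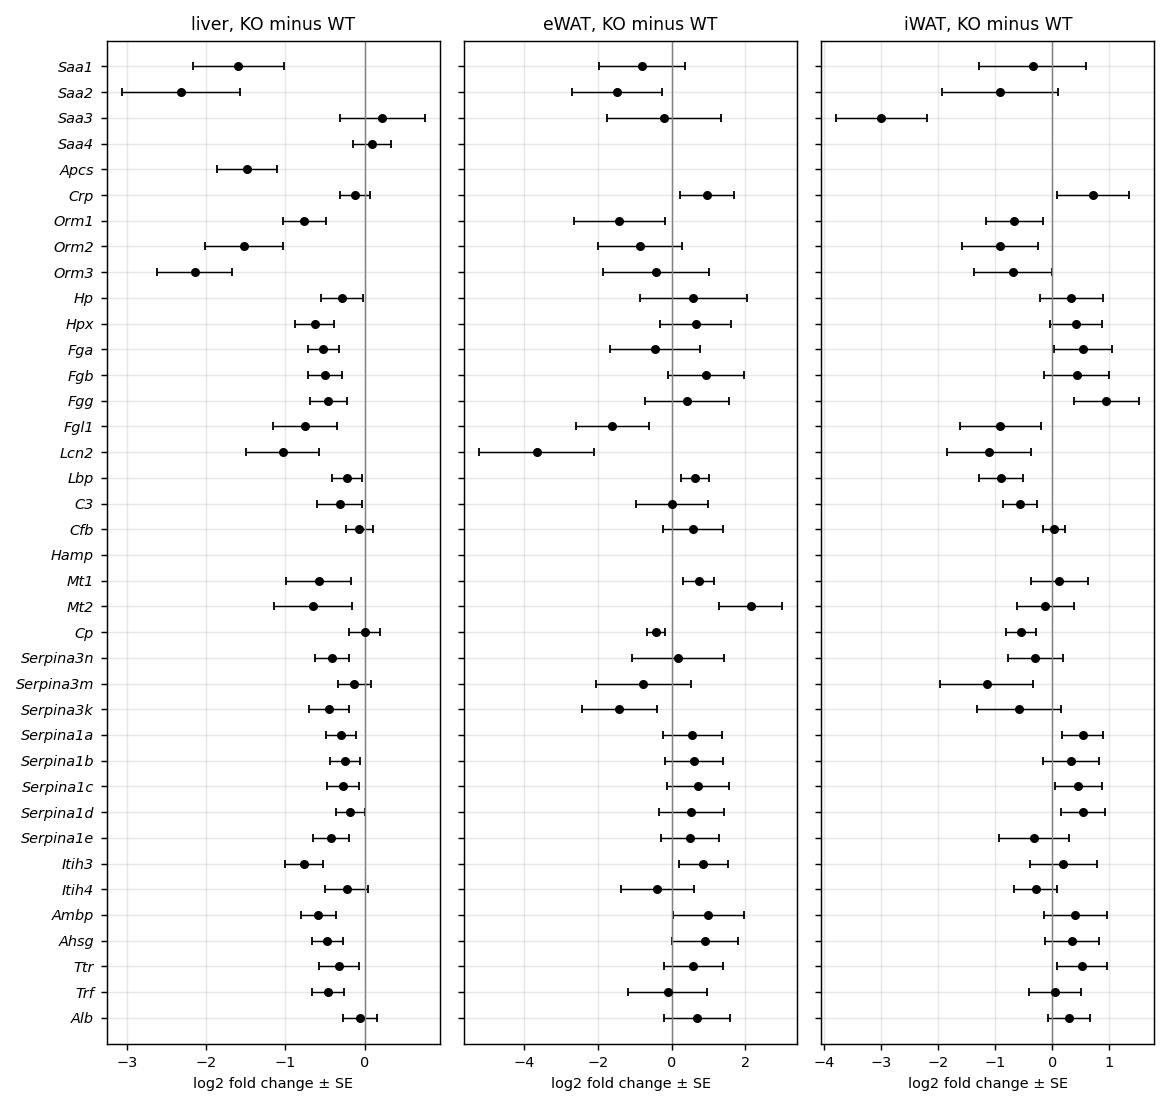
Log2 fold change, KO over WT, with its standard error (edgeR), of each member in liver (left), eWAT (middle) and iWAT (right), n = 3 libraries per genotype; members not tested in a tissue are blank. Liver points lie mostly left of 0 with short bars, eWAT bars are the longest, and Saa3 in iWAT, at -2.99 ± 0.79, is the lowest iWAT point.

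Whether the genotype difference itself differed between tissues was tested over all 18 libraries for each pair of tissues, and edgeR called 0 of 38 members and 0 of 15717 genes (0.0%) in each, as DESeq2 and limma-voom called 0 members. Without adjustment, 0 members had p under 0.05 for liver minus iWAT (1.31% of all genes were below 0 with such a p), 1 for liver minus eWAT (3.35%) and 2 for iWAT minus eWAT (3.75%). These were Mt2 for liver minus eWAT (difference of log2 fold changes -2.84 ± 1.0, adjusted p = 0.747), and Lbp (-1.59 ± 0.50, adjusted p = 0.778) and Mt2 (-2.33 ± 0.99, adjusted p = 0.849) for iWAT minus eWAT. Without KO eWAT 2 the Mt2 differences were -1.67 for liver minus eWAT and -1.20 for iWAT minus eWAT. Saa3 differed by 3.21 ± 1.65 for liver minus iWAT (adjusted p = 1). The lower acute phase genes of KO livers were therefore not shown to be particular to liver. These contrasts share the libraries of each tissue. The labels do not say whether same-numbered libraries of different tissues came from 1 mouse, and the main tests between tissues did not pair them.

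Levels in liver and fat were compared in WT libraries of liver and iWAT, since WT eWAT 2 had few adipocyte transcripts. Of 37 members tested, 36 were higher in liver (edgeR, adjusted p under 0.05), where 27% of all 13647 genes tested were. The edgeR differences ran from 1.71 on the log2 scale for Mt2 (adjusted p = 0.0367) to 10.91 for Hpx, and the Mt2 call held in 7 of 14 alternatives. Ratios of mean FPKM, liver over iWAT, were smaller, at 1.24 for Mt2, 2.09 for Mt1, 2.23 for Lbp and 731 for Hpx. The median difference over all genes was -0.22 with edgeR, against -1.22 to -0.74 with limma on log2 FPKM values, so the size of these differences depends on the scaling. Alb had an edgeR difference of 10.42, and averaged 37797 FPKM in WT livers and 72.2 FPKM in WT iWAT, a ratio of 524. Crp had an edgeR difference of 10.79 and an FPKM ratio of 704, Serpina1a 10.65 and 618, and Fgb 10.60 and 594. Smaller edgeR differences were those of Mt1 (2.44), Lbp (2.47), Serpina3n (2.5), Cp (2.68), C3 (3.31), Cfb (3.56), Lcn2 (3.99) and Hp (4.12). The exception was Saa3, at 0.31 (adjusted p = 0.743), with 12.0 FPKM in WT livers and 25.7 FPKM in WT iWAT, and the sign of its difference turned with FPKM values.

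The proportions of the members among themselves in fat were compared with those in liver. For each fat library, a member's FPKM relative to that of Alb was divided by the median of the same ratio over the 6 livers, so that a value of 1 means that the gene stood to Alb as it does in liver. In 17 members the median over the 12 fat libraries was under 2: Alb itself, Saa4, Apcs, Crp, Hpx, the 3 fibrinogen chains, Serpina3k, the 5 Serpina1 genes, Ambp, Ahsg and Ttr. Hpx had a median ratio of 1.04 and a range of 0.704 to 1.28, Ahsg 1.06 with a range of 0.708 to 1.29, and Serpina1a 1.04 with a range of 0.836 to 1.34. These 3 genes thus stood in near liver proportions to Alb, which itself was at 0.0605% to 0.639% of its median liver level. The source of these reads was not tested.

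In 6 members the median ratio lay between 2 and 10 (Saa1, Saa2, Orm2, Fgl1, Itih3 and Itih4), and in 15 it was over 10. The 15 were Saa3, Orm1, Orm3, Hp, Lcn2, Lbp, C3, Cfb, Hamp, Mt1, Mt2, Cp, Serpina3n, Serpina3m and Trf. Serpina3m was close to the limit, at 11.2. The Hamp ratio is uncertain, since this gene had few reads in liver and iWAT and no reads in eWAT. Saa1 had a median ratio of 4.62, with a range of 1.67 to 66.5. Saa3 had a median ratio of 494 and stood at 68.6% of its liver level in the median fat library. The metallothioneins stood at a median of 104% of the liver level for Mt1 and 148% for Mt2, but the depots differed. Single iWAT libraries had 38.55% to 108.5% of the liver level of Mt1, while eWAT libraries reached 100.4% to 390.6%. For Mt2 the lowest and highest values were 53.55% and 151.2% among iWAT libraries, and 85.0% and 2734% among eWAT libraries. Each median given here pools both depots and includes WT eWAT 2, which had few adipocyte transcripts. Lcn2 stood at a median of 50.5%, with a highest value of 2933% in WT eWAT 2, Serpina3n at 64.9%, Lbp at 52.7%, Cp at 32.8%, Hp at 26.1% and Trf at 8.85%.

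**Figure D5:**
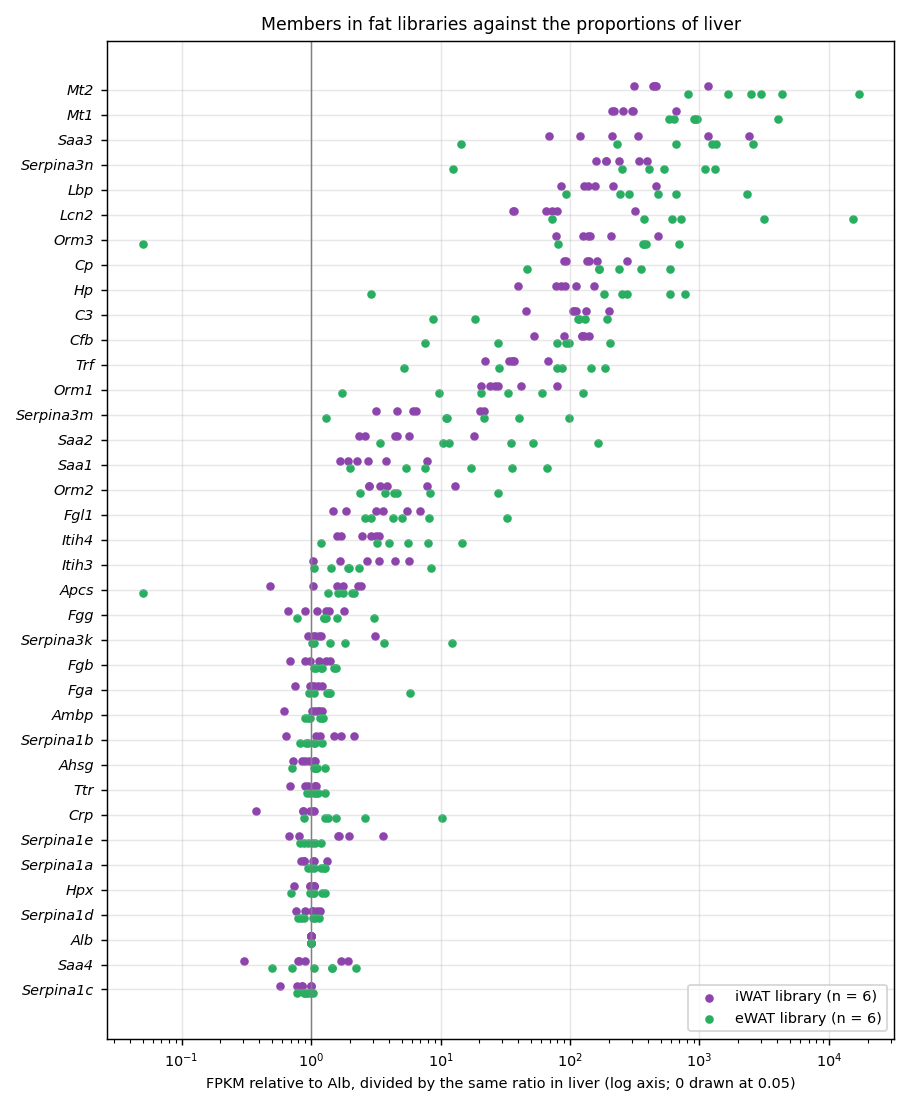
FPKM of each member relative to Alb in each of the 12 fat libraries, divided by the same ratio in liver (log axis, libraries at 0 drawn at 0.05; Hamp is not drawn). Members such as Hpx, Ahsg and the Serpina1 genes cluster around 1, and Saa3, Mt1, Mt2, Lcn2, Lbp, Cp, Hp and Serpina3n lie mostly above 10.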

How the data were processed

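RNA-seq of 18 libraries was analysed, 3 per genotype in each of 3 tissues. Per the labels' protocols, polyadenylated RNA was selected and reverse transcribed with random primers; they do not say whether strand was kept. Per the submitters' processing notes, the tools included RSEM, HISAT2, edgeR, DESeq2, StringTie 1.3.1, Bowtie2 2.2.8 and fastp 0.18.0, with build mm10. The authors deposited an expected count per gene and library, an estimate that need not be whole (8.33% of values lay at least 0.01 from a whole number), and an FPKM value scaled by length and library size.

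Of 22298 identifiers, 22255 matched a GENCODE M21 symbol. Counts were rounded, genes were kept by filterByExpr (minimum count 10, minimum total 15), and KO was compared with WT inside a tissue by edgeR 4.0.16 (TMM, glmQLFit with robust estimation) in R 4.3.3, with Benjamini-Hochberg adjustment over all genes tested and a threshold of 0.05. SE is the size of the log2 fold change over the root of F. Genotype differences between tissues were tested over all 18 libraries. CPM values are scaled within the 6 libraries of a tissue, and marker sums over all 18. Levels of different genes were compared with the deposited FPKM. Alternatives were other size factors, no filter, DESeq2 1.42.0, limma-voom (limma 3.58.1), limma on log2 FPKM, a replicate block and leaving out libraries. The tests were checked on simulated data. Totals were 18629302 to 25969223 reads in liver, 16796147 to 24357859 in eWAT and 17959394 to 28039742 in iWAT, and a count of 0 covers counting error only.

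Named genes are all members, with full values for up to 8 of lowest p in each tissue, and the 2 genes of lowest p of each pathway list. The members and lists were chosen with earlier results of these data known, so no set test was made. Promoters are from RefSeq (GRCm38.p6), of which 29 members had one outside chromosome 18. The values of 1 gene of the transcription factor list are not reported here.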

Additional observations from a re-analysis of the deposited data

How the results depend on the processing

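In liver the members' median log2 fold change stayed between -0.48 and -0.30 under 15 alternatives, and 29 of 37 members kept their sign in each of them. The 8 that did not were Saa3, Saa4, Hp, Mt2, Cp, Serpina3m, Itih4 and Alb. Called members numbered 0 with edgeR and 2 with DESeq2, and 0 to 2 when 1 library was left out. Members lower at an unadjusted p under 0.05 numbered 13, against 7, 7 and 7 with limma on log2(FPKM + 1), on log2(FPKM + 0.1) and on genes with a mean FPKM of at least 1, 1 in a fit of all 18 libraries, and 6 to 16 when 1 library was left out. The cause was not tested, except that fewer libraries enter when 1 is left out. All genes called in liver numbered 6 with edgeR, 8 with median-of-ratios size factors, 11 without the filter on low counts, 63 with DESeq2, 4 with limma-voom, 25 without WT liver 2 and 0 in the fit of all 18 libraries.

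In eWAT the median was 0.50, ran from -0.68 to 0.80 when 1 library was left out, and was -0.07 with limma-voom and 1.43 with the 3 libraries low in epididymal transcripts, and 25 of 35 members changed sign under at least 1 alternative. All genes called there numbered 0 with edgeR, 128 with DESeq2, 4 in the fit of all 18 libraries and 25 with those 3 libraries. The median over all genes in eWAT was -0.02 with edgeR and 0.20 to 0.36 with FPKM values. In iWAT 1 member was called with DESeq2 (Saa3), the median ran from -0.33 to 0.43 when 1 library was left out, 18 of 35 members changed sign, and all genes called numbered 0 with edgeR and 60 with DESeq2. Called members stayed at 0 for differences between tissues. For liver against iWAT they numbered 34 to 36 under the alternatives, and Saa3 alone changed sign.

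Genotypes share replicate numbers 1 to 3 within a tissue, and the main tests did not pair libraries by them. Deviations of same-numbered liver libraries correlated at 0.17, 0.15 and -0.24, and not every library correlated best with its own number. With 3 libraries per group, these correlations cannot decide whether the numbers pair the libraries. With the replicate block, 0 members were called in any tissue, 11 liver members were lower at an unadjusted p under 0.05, the median was -0.41 in liver, 0.04 in eWAT and 0.04 in iWAT, and 39 genes of all were called in liver, and the numbers are not shown to mark anything shared.

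With 3 libraries per genotype, an absent call does not show that a gene is unchanged.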
